A study of Mus musculus with 6 samples.

Results

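Glutamine and asparagine tRNAs encoded in the nucleus were measured by small RNA sequencing in hearts of mice with and without Elac2. They were taken as every feature typed as a mature or precursor nuclear tRNA whose name carries the isotype Gln or Asn, without regard to its values. The choice gave 49 of 30638 features, out of 739 nuclear tRNA features. Of the 49 features, 17 were mature (6 Gln-CTG, 6 Gln-TTG and 5 Asn-GTT) and 32 were precursors (12 Gln-CTG, 7 Gln-TTG and 13 Asn-GTT). A mature name gives the isotype, the anticodon and a number for a set of identical mature sequences (Gln-CTG-2). A precursor name adds a number for the gene copy (Gln-CTG-2-1).

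A transfer RNA carries an amino acid to the ribosome and reads a codon of the mRNA with its anticodon. Glutamine has a pair of codons, read in mammals by tRNAs with the anticodons CTG and TTG (written as DNA), and asparagine codons are read by tRNAs with the anticodon GTT. Nuclear tRNA genes are transcribed by RNA polymerase III into precursors with a 5′ leader and a 3′ trailer. RNase P removes the leader. RNase Z, the product of Elac2 in mammals, cuts off the trailer in the nucleus and in mitochondria, after which CCA is added to the 3′ end and the amino acid can be attached.

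Both groups were C57BL/6 mice with an exon of Elac2 flanked by loxP sites. The 3 controls were titled L/L and labelled Elac2 +/+. The 3 knockouts were titled L/L, cre and labelled Elac2 -/-, and carried cre under the muscle creatine kinase promoter, which is active in striated muscle. RNA was isolated from crude hearts, so that endothelial cells, fibroblasts and blood cells, which do not use that promoter, also contributed. Age and sex were not given in the sources used here. The deletion itself was not checked in these libraries, since Elac2 mRNA was not analysed here. In such bulk samples, fewer cells of a type and less RNA per cell cannot be told apart.

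Each library held between 13510061 and 16248673 counts. Mature glutamine and asparagine tRNAs took 691, 914 and 848 counts in control replicates 1, 2 and 3 and 807, 729 and 736 in knockout replicates 1, 2 and 3, which was between 0.00477% and 0.00563% of a library. Their precursors took 137, 185 and 177 counts in controls and 307, 267 and 256 in knockouts. The mature members made up 0.172%, 0.184% and 0.133% of all nuclear mature tRNA counts in controls and 1.24%, 1.36% and 0.884% in knockouts. In that share the knockouts stood above the controls in every library, while the raw counts of the mature members overlapped between the groups. The precursor members made up 3.20%, 3.17% and 2.61% of all nuclear precursor counts in controls and 3.72%, 3.66% and 3.71% in knockouts. Levels below are CPM, each count divided by the library size in units of 1e6 after scaling by a TMM factor, which corrects library sizes for composition. Values in triplets are in the order of replicates 1, 2 and 3, controls first. The libraries were size-selected for short RNAs, a range that holds fragments as well as whole tRNAs, and the 2 cannot be told apart in these counts. The sources used here do not give the rule that divided reads between mature and precursor features, and the split between near-identical gene copies is uncertain, so sums per anticodon are given first.

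RefSeq (GRCm38.p6, the build used for mapping) listed 29 glutamine and asparagine tRNA genes. The 13 Asn-GTT genes were 74 nt long, and the 10 Gln-CTG and 6 Gln-TTG genes were 72 nt long. Of the Asn-GTT genes 6 lay together on chromosome 3 between 96322074 and 96497854, and 4 Gln-CTG genes lay on the same chromosome between 96341156 and 97681530. Another 4 Gln-CTG genes lay on chromosome 13 between 21172351 and 21996652, with 3 Gln-TTG genes between 21268469 and 23519684. By GENCODE M21, 23 of the 29 genes were intergenic, 4 lay in introns and 2 overlapped exons, of Ndufs7 and of Gm11527. The RefSeq gene names could not be paired with the feature names, so no position is assigned to a single feature.

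The comparison of knockout with control hearts asks how loss of the 3′ processing enzyme changes these tRNAs. With TMM scaling, summed mature reads rose for Gln-CTG and fell for Gln-TTG, and summed precursor reads rose for both glutamine anticodons. For asparagine, precursor reads rose, and mature reads were not called. When libraries were scaled by snoRNA and scaRNA genes instead, the mature Gln-CTG and precursor Asn-GTT values turned negative and neither was called. In all, 5 of the 6 sums were called at an edgeR adjusted p under 0.05, 4 of them higher and 1 lower, beside 51.3% of the 998 rows of the same table, 23.1% higher and 28.2% lower.

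Mature Gln-CTG reads summed to 25.9, 24.3 and 23.9 CPM in controls and 31.9, 36.3 and 36.6 CPM in knockouts. Every knockout lay above every control, with means of 24.7 ± 1.06 and 34.9 ± 2.59 CPM (SD, n = 3 each), a log2 fold change of 0.50 (SE 0.18, edgeR adjusted p = 0.0401). The call was lost without control replicate 2 (0.45, edgeR adjusted p = 0.0765) or control replicate 3 (0.45, edgeR adjusted p = 0.143), with total counts (0.16, edgeR adjusted p = 0.527) and with miRNA genes (0.32, edgeR adjusted p = 0.166). When libraries were scaled by snoRNA and scaRNA genes the direction turned (-0.35, edgeR adjusted p = 0.132), and with a block for the replicate number the edgeR adjusted p was 0.141.

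Mature Gln-TTG reads went the other way. They summed to 6.11, 9.23 and 9.07 CPM in controls and 2.11, 3.08 and 3.01 CPM in knockouts. The groups did not overlap, with means of 8.14 ± 1.76 and 2.73 ± 0.544 CPM (SD, n = 3 each). Relative to TMM-scaled library sizes, the summed counts were 3.03 times lower in knockouts. The log2 fold change was -1.58 (SE 0.27, edgeR adjusted p = 0.000443), and it kept its sign and its call under all 6 library scalings. The ratio of mature Gln-CTG to Gln-TTG counts within a library does not depend on the scaling. Its log2 was 1.62 ± 0.397 in controls and 3.69 ± 0.200 in knockouts, a difference of 2.07 (exact two-sided permutation p = 0.1, the smallest that 3 against 3 allows). That ratio was chosen after the values were seen.

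Mature Asn-GTT reads summed to 12.9, 18.0 and 13.4 CPM in controls and 24.5, 18.3 and 15.8 CPM in knockouts. The groups overlapped, with knockout replicate 1 above all other libraries. The log2 fold change was 0.40 (SE 0.24, edgeR adjusted p = 0.172). Without knockout replicate 2 it was 0.70 (edgeR adjusted p = 0.0384) and without knockout replicate 3 it was 0.74 (edgeR adjusted p = 0.0165), so it was called when either was left out. With the filter and factors computed anew, leaving out those mice also shifted the median log2 fold change of all features, by 0.24 and 0.22. Part of the rise was thus common to all features.

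Precursor Gln-CTG reads had the largest log2 fold change of the 6 sums with TMM scaling. They were 2.21, 1.07 and 1.58 CPM in controls and 6.24, 6.88 and 5.79 CPM in knockouts, with means of 1.62 ± 0.571 and 6.30 ± 0.546 CPM (SD, n = 3 each). The lowest knockout was more than all controls, and the summed counts were 3.95 times higher relative to TMM-scaled library sizes. EdgeR gave a log2 fold change of 1.96 (SE 0.30, edgeR adjusted p = 0.000197), called and higher under all 6 scalings.

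Precursor Gln-TTG reads were 0.975, 1.07 and 1.20 CPM in controls and 2.18, 2.61 and 2.11 CPM in knockouts. These values did not overlap and rested on 15 to 33 counts per library. The sum changed by 1.08 on the log2 scale (SE 0.30, edgeR adjusted p = 0.0104). It was positive under all 6 scalings but not called with total counts (0.73) or with snoRNA and scaRNA genes (0.23).

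Precursor Asn-GTT reads were 5.72, 8.28 and 6.88 CPM in controls and 13.9, 11.6 and 11.4 CPM in knockouts. The groups did not overlap in CPM, though control replicate 2 and knockout replicate 2 tied at 147 raw counts. Means were 6.96 ± 1.28 and 12.3 ± 1.38 CPM (SD, n = 3 each), a log2 fold change of 0.82 (SE 0.22, edgeR adjusted p = 0.00952). It was not called with total counts (0.48) or with factors from miRNA genes (0.63), and was -0.02 with snoRNA and scaRNA genes.

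**Figure D1:**
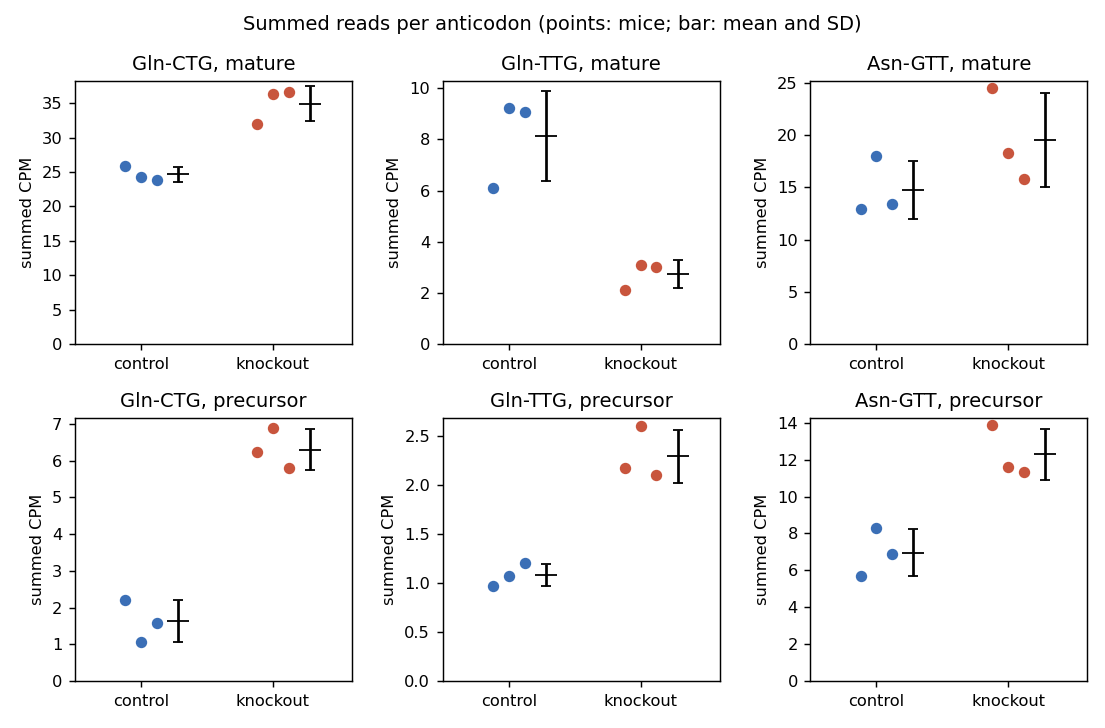
Summed reads per anticodon and form in CPM, with 1 point per mouse and the mean and SD beside each group of 3. Mature Gln-TTG is the 1 panel in which all knockouts lie below all controls, mature Asn-GTT is the 1 panel with overlapping groups, and in the other 4 panels all knockouts lie above all controls.

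The mature glutamine reads came mostly from a few sequences. Of the 17 mature members, 13 had a count in some library and 10 passed the filter on low counts. By edgeR, 2 of the 10 were called higher, 2 lower and 6 were not called, while 50.2% of the 1144 features tested were called, 23.2% higher and 27.0% lower. In 4 of the 13 every knockout was above every control in TMM-scaled CPM and in 2 below. Among the 4, the raw counts of Gln-CTG-1, Gln-CTG-2 and Asn-GTT-2 overlapped between the groups. Over the 9254 features with a count, 22.5% did not overlap in CPM, 5.63% with knockouts above and 16.8% with knockouts below. Of the features that passed the filter 63.0% did not overlap, 29.4% with knockouts above and 33.7% below.

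Gln-CTG-2 was the most abundant mature member. It stood at 9.94, 11.3 and 10.1 CPM in controls and 14.4, 13.8 and 13.8 CPM in knockouts. Its groups did not overlap, yet the log2 fold change of 0.42 (SE 0.20, edgeR adjusted p = 0.0938) did not pass. Gln-CTG-5 was at 7.02, 5.91 and 5.68 CPM in controls and 6.90, 9.57 and 10.7 CPM in knockouts. Knockout replicate 1 fell within the controls, and the log2 fold change was 0.55 (SE 0.24, edgeR adjusted p = 0.0744). Gln-CTG-1 was at 6.24, 5.52 and 5.68 CPM in controls and 6.53, 9.65 and 8.73 CPM in knockouts (0.51, SE 0.23, edgeR adjusted p = 0.0795). These 3 sequences, none of them called, carried most of the Gln-CTG reads. Leaving out knockout replicate 1 gave a call for Gln-CTG-5 (0.92, edgeR adjusted p = 0.0112) and for Gln-CTG-1 (0.87, edgeR adjusted p = 0.0135), as leaving out control replicate 1 did (0.71, edgeR adjusted p = 0.0229, and 0.64, edgeR adjusted p = 0.0381). Without knockout replicate 2, Gln-CTG-5 was also called (0.74, edgeR adjusted p = 0.0377). The median log2 fold change of all features shifted too, by 0.21 without knockout replicate 1 and 0.24 without knockout replicate 2. Without control replicate 1 that shift was 0.02.

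Gln-CTG-3 was the 1 Gln-CTG sequence called on its own by edgeR. It was at 1.56, 1.07 and 1.53 CPM in controls and 2.83, 2.45 and 2.41 CPM in knockouts, with no overlap. Its log2 fold change was 0.89 (SE 0.28, edgeR adjusted p = 0.0215), and 0.69 without control replicate 2 (edgeR adjusted p = 0.0712). It was not called with total counts (0.55), miRNA genes (0.71) or snoRNA and scaRNA genes (0.04), nor by DESeq2's Wald test (0.86, adjusted p = 0.0685) or in the authors' deposited table (adjusted p = 0.0870). Gln-CTG-6 was between 0.474 and 1.09 CPM with overlapping groups (0.18, SE 0.42, edgeR adjusted p = 0.728), and Gln-CTG-4 had at most 5 counts in a library.

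Mature Gln-TTG reads were nearly all from Gln-TTG-1 and Gln-TTG-3. Gln-TTG-1 was at 5.33, 6.76 and 6.83 CPM in controls and 1.67, 2.85 and 2.93 CPM in knockouts. Every knockout was below every control, and the log2 fold change was -1.35 (SE 0.27, edgeR adjusted p = 0.00143). It lost its call (-0.76, edgeR adjusted p = 0.0960) when libraries were scaled by snRNA and nuclear rRNA genes.

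Gln-TTG-3 had 12, 43 and 39 counts in controls and 1, 2 and 0 in knockouts. The sequence was close to absent from the knockout libraries, with counts 24.2 times lower relative to TMM-scaled library sizes (95% interval 8.02 to 119, counting error only). It reached the minimum of the filter in controls only and so passed it through the group where it was high. Its fitted log2 fold change of -4.42 (SE 0.74, edgeR adjusted p = 0.000322) is therefore a description. The fitted value ranged from -5.07 without knockout replicate 2 to -3.66 without knockout replicate 3. Of the other Gln-TTG sequences, Gln-TTG-2 had 0, 0 and 0 counts in controls and 3, 0 and 1 in knockouts, Gln-TTG-6 had at most 2 counts in a library, and Gln-TTG-4 and Gln-TTG-5 had 0 in all 6 libraries.

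Among asparagine sequences, Asn-GTT-2 was the 1 that rose. It was at 2.92, 3.10 and 2.73 CPM in controls and 10.7, 5.30 and 4.06 CPM in knockouts. All knockouts were above all controls, and knockout replicate 1 was far above the other 2. The log2 fold change was 1.20 (SE 0.34, edgeR adjusted p = 0.0122), or 0.90 without knockout replicate 1 (edgeR adjusted p = 0.0177). It was not called with total counts (0.88), miRNA genes (1.04) or snoRNA and scaRNA genes (0.35).

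Asn-GTT-3, the most abundant asparagine sequence, was at 7.41, 11.9 and 8.19 CPM in controls and 10.1, 10.5 and 9.18 CPM in knockouts (0.11, SE 0.24, edgeR adjusted p = 0.701). Asn-GTT-1 was at 2.60, 2.98 and 2.46 CPM in controls and 3.70, 2.45 and 2.56 CPM in knockouts (0.12, SE 0.27, edgeR adjusted p = 0.726). Both had overlapping groups. Asn-GTT-4 and Asn-GTT-5 had 0 counts in all 6 libraries.

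**Figure D2:**
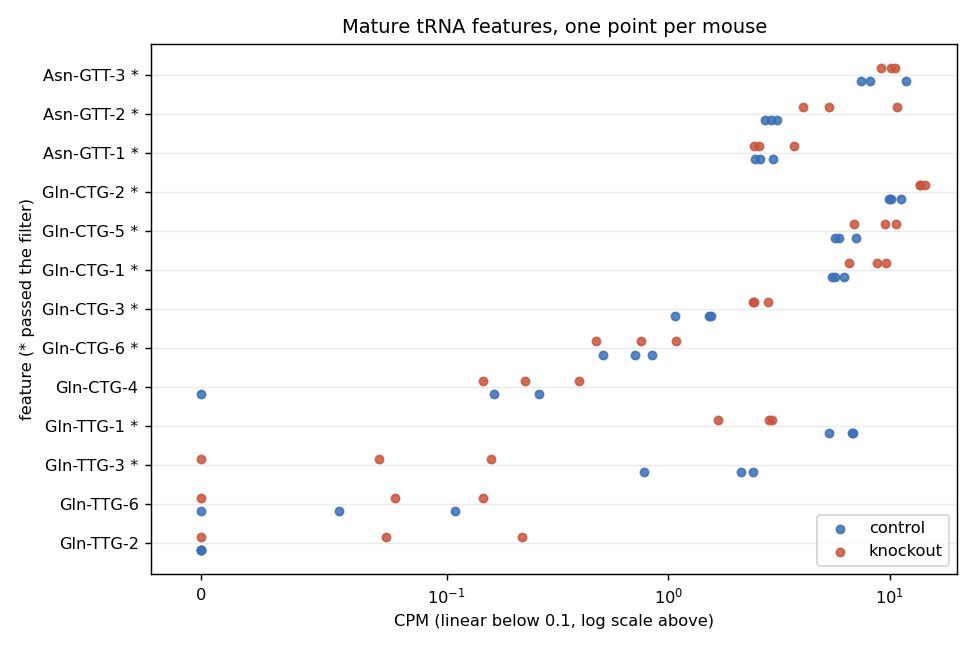
CPM of the 13 mature members with a count, 1 point per mouse, on an axis that is linear below 0.1 and logarithmic above. Gln-TTG-1 and Gln-TTG-3 are the rows in which all knockouts lie left of all controls, and Gln-CTG-1, Gln-CTG-2, Gln-CTG-3 and Asn-GTT-2 those in which all knockouts lie right of all controls.

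The precursors were near the limit of detection copy by copy. Of the 32 precursors, 29 had a count, 10 passed the filter, 5 of these were called higher by edgeR, 0 lower and 5 not. All 5 called precursors reached the minimum of the filter in every knockout library and not in every control. For 2 of them, Gln-TTG-3-1 and Asn-GTT-2-1, no control reached it, so they were tested only through the knockouts. The number called is therefore a description only. Without control replicate 1, 16 of the 49 members were called, 4 mature and 10 precursor ones higher and 2 mature ones lower, and 908 features in all. Counts over the 29 do not depend on that filter. In 25 of them the knockout mean in TMM-scaled CPM was above the control mean and in 4 below. The share of all features with a higher knockout mean was not computed, so these numbers are a description only. In 15 of the 29 (10 Gln, 5 Asn) every knockout was above every control in TMM-scaled CPM and in 0 below. Over all 9254 features with a count the shares were 5.63% above and 16.8% below, and over the features that passed the filter 29.4% above and 33.7% below. The numbers 25 and 15 depend on the TMM scaling. Raw counts of Gln-CTG-2-2, Gln-CTG-2-4, Gln-CTG-5-1 and Asn-GTT-5-1 tied or overlapped between the groups. With no filter on low counts, edgeR called 12 of the 29 higher (7 of 17 Gln, 5 of 12 Asn) and 0 lower, beside 4.68% higher and 7.65% lower of all 9254. Without the filter, log2 fold changes also shifted upward, by a median of 0.36 over the features tested with it. In the table the authors deposited, 7 precursors were higher, 0 lower, 16 not called and 9 without an adjusted p, beside 29.4% called, 8.78% higher and 20.6% lower, of its 2597 features with an adjusted p. Of the 5 precursors called higher here, that table did not call Gln-CTG-2-2, Gln-TTG-3-1 and Asn-GTT-3-9.

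Precursor reads of Gln-CTG came from several families. In Gln-CTG-5-1 there were 11, 3 and 14 counts in controls and 27, 27 and 13 in knockouts, so that knockout replicate 3 was below control replicate 3 in counts, though not in CPM. The log2 fold change was 1.61 (SE 0.50, edgeR adjusted p = 0.0176). It was not called without control replicate 2 (1.14, edgeR adjusted p = 0.0593), with total counts (1.27, edgeR adjusted p = 0.0533) or with snoRNA and scaRNA genes (0.77, edgeR adjusted p = 0.197).

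The Gln-CTG-2 family, whose mature sequence was the most abundant, had 4 copies with counts. Copy Gln-CTG-2-2 had 10, 5 and 3 counts in controls and 10, 14 and 18 in knockouts (1.56, SE 0.51, edgeR adjusted p = 0.0229). It was not called without control replicate 2 (1.38, edgeR adjusted p = 0.0929), control replicate 3 (1.17, edgeR adjusted p = 0.117) or knockout replicate 3 (1.51, edgeR adjusted p = 0.0637), and reached 2.29 without control replicate 1. It was also not called with total counts (1.22, edgeR adjusted p = 0.0620), with snoRNA and scaRNA genes (0.72, edgeR adjusted p = 0.218), by DESeq2's Wald test (adjusted p = 0.0537) or in the authors' deposited table (adjusted p = 0.0900). Copy Gln-CTG-2-3 had 6, 5 and 4 counts in controls and 8, 14 and 13 in knockouts, and copy Gln-CTG-2-1 had 5, 3 and 3 in controls and 8, 14 and 11 in knockouts. These copies were each low in controls and higher in most knockouts. Summed over copies, a step added after the values were seen, the family rose from 0.921 ± 0.456 to 2.94 ± 0.851 CPM (SD, n = 3 each), a log2 fold change of 1.68 (SE 0.39, edgeR adjusted p = 0.00370). In the table of family sums 50.1% of 1100 rows were called, 22.6% higher and 27.5% lower.

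Some Gln-CTG precursors were seen almost only in knockouts. Gln-CTG-3-2 had 0, 1 and 2 counts in controls and 22, 9 and 11 in knockouts, a ratio of 18.1 after TMM scaling (95% interval 5.80 to 91.5, counting error only). Gln-CTG-1-1 had 1, 0 and 0 counts in controls and 6, 5 and 4 in knockouts, a ratio of 19.4 after TMM scaling (95% interval 2.99 to 818). Neither passed the filter. With no filter on low counts edgeR called both, at log2 fold changes of 4.36 (adjusted p = 1.56e-07) for Gln-CTG-3-2 and 4.11 (adjusted p = 0.00165) for Gln-CTG-1-1, and the authors' deposited table listed both as higher, at 4.23 and 4.21. The fit without the filter carried a median upward shift of 0.36. Other Gln-CTG copies (2-4, 3-1, 3-3, 4-1 and 7-1) had at most 3 counts in a library, and 6-1 had 0.

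Gln-TTG-2-1 was at 0 in every control library and had 9, 8 and 8 counts in knockouts. That is at least 10.8-fold higher than the 0.0583 CPM that 3 counts over the 3 control libraries would give. The authors' deposited table gave it an adjusted p of 0.000883. Its mature sequence, Gln-TTG-2, was likewise at 0 in controls, with 4 counts in all in knockouts.

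Gln-TTG-3-1 belongs to the family whose mature sequence was close to absent in knockouts. Its precursor had 6, 9 and 6 counts in controls and 12, 12 and 11 in knockouts (1.10, SE 0.39, edgeR adjusted p = 0.0345). No control library reached the minimum of the filter, so the fitted value is a description. The call was lost without control replicate 2 (1.25, edgeR adjusted p = 0.0606), control replicate 3 (0.92, edgeR adjusted p = 0.165), knockout replicate 1 (1.34, edgeR adjusted p = 0.0698), knockout replicate 2 (1.30, edgeR adjusted p = 0.0965) or knockout replicate 3 (1.34, edgeR adjusted p = 0.0781). It was also lost with total counts (0.76), miRNA genes (0.91), snoRNA and scaRNA genes (0.26) and DESeq2's Wald test (adjusted p = 0.168), and the authors' deposited table did not call it (adjusted p = 0.196). Gln-TTG-1-1, the precursor of the most abundant Gln-TTG sequence, had 6, 9 and 14 counts in controls and 6, 6 and 7 in knockouts, with overlapping groups. Gln-TTG-3-2, 5-1 and 6-1 had at most 4 counts in a library, and 4-1 had 0.

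Among asparagine precursors, a few copies were far higher in knockouts. Asn-GTT-2-1 had 3, 0 and 2 counts in controls and 42, 25 and 15 in knockouts, a ratio of 21.3 after TMM scaling (95% interval 8.75 to 67.2, counting error only). Every knockout was above every control, and the log2 fold change was 4.29 (SE 0.67, edgeR adjusted p = 0.000211). The copy reached the minimum of the filter in knockouts only, so the fitted value is a description. That value ranged from 3.68 without control replicate 2 to 5.09 without control replicate 1. Asn-GTT-2-1 is the 1 precursor copy of Asn-GTT-2, the asparagine sequence whose mature reads rose. In both forms knockout replicate 1 was the highest library and knockout replicate 3 the lowest knockout.

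Values varied over the 9 copies of Asn-GTT-3, and differences between copies were not tested. Asn-GTT-3-9 had 4, 8 and 11 counts in controls and 14, 15 and 14 in knockouts (1.27, SE 0.40, edgeR adjusted p = 0.0189). It was not called without control replicate 2 (1.25, edgeR adjusted p = 0.0664), with total counts (0.93), miRNA genes (1.08) or snoRNA and scaRNA genes (0.44), by DESeq2's Wald test (adjusted p = 0.0813) or in the authors' deposited table (adjusted p = 0.110). Asn-GTT-3-5 had 2, 1 and 4 counts in controls and 19, 17 and 9 in knockouts, and Asn-GTT-3-4 had 2, 4 and 4 in controls and 9, 15 and 11 in knockouts. Neither passed the filter, and both were higher in the authors' deposited table, at log2 fold changes of 3.10 for Asn-GTT-3-5 and 2.25 for Asn-GTT-3-4.

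The other tested copies, Asn-GTT-3-1, 3-2, 3-6, 3-7 and 3-8, had 5 to 45 counts per library and overlapping groups. Their log2 fold changes were -0.34, 0.10, -0.31, 0.21 and 0.47, and the lowest edgeR adjusted p was 0.253, for Asn-GTT-3-8. Summed over the 9 copies, the Asn-GTT-3 family was at 6.74 ± 1.39 CPM in controls and 9.74 ± 0.307 CPM in knockouts (SD, n = 3 each). The groups did not overlap in TMM-scaled CPM but did in raw counts (82, 144 and 124 in controls, 138, 119 and 130 in knockouts). The log2 fold change of 0.53 (SE 0.22, edgeR adjusted p = 0.0671) did not pass. The log2 ratio of Asn-GTT-2 to Asn-GTT-3 precursor counts was -6.12 ± 1.86 in controls and -2.34 ± 0.691 in knockouts, a difference of 3.79 (exact two-sided permutation p = 0.1, the smallest possible), and was chosen after the values were seen. Asn-GTT-5-1 had 1, 0 and 0 counts in controls and 10, 2 and 1 in knockouts, so that its higher sum rested on knockout replicate 1. Asn-GTT-1-1 and 3-3 had at most 6 counts in a library, and 4-1 had 0.

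**Figure D3:**
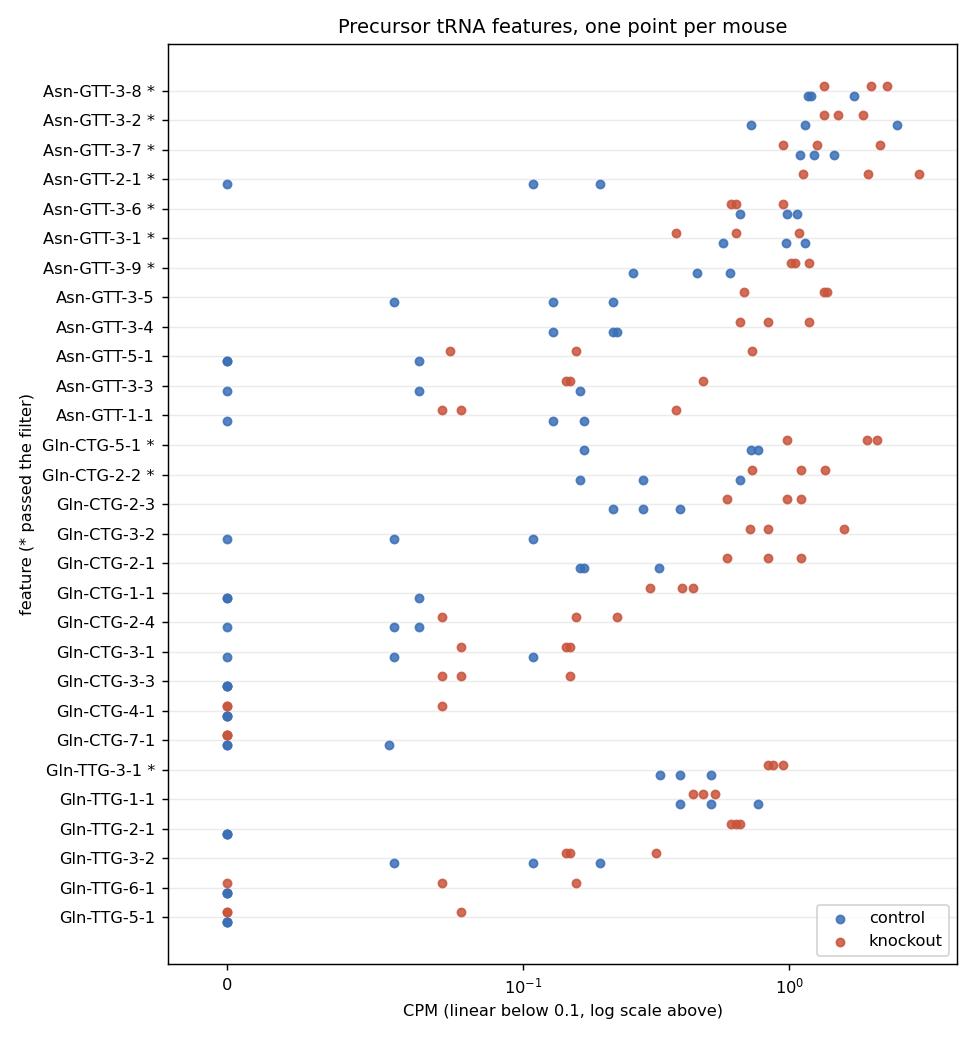
CPM of the 29 precursor members with a count, 1 point per mouse, on an axis that is linear below 0.1 and logarithmic above, with copies that passed the filter starred. Asn-GTT-2-1, Gln-CTG-3-2, Gln-CTG-1-1 and Gln-TTG-2-1 have controls at or near 0 and all knockouts well to the right, while Asn-GTT-3-1, 3-2, 3-6, 3-7 and 3-8 have overlapping groups.

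Reads of the precursor and mature form of an anticodon were also compared within each library, which needs no scaling between libraries. For Gln-TTG the log2 ratio of precursor to mature counts was -2.61, -3.08 and -2.89 in controls and 0.05, -0.24 and -0.51 in knockouts. Summed precursor and mature counts were thus close to equal in knockouts, and the difference was 2.63 (SE 0.23, limma adjusted p = 3.42e-05). These sums mix families and do not hold for each. Gln-TTG-1 had 327 mature and 29 precursor counts in controls, and 98 and 19 in knockouts. For Gln-CTG the log2 ratio was -3.53, -4.47 and -3.89 in controls and -2.35, -2.39 and -2.65 in knockouts, a difference of 1.50 (SE 0.27, limma adjusted p = 0.00160). For Asn-GTT it was -1.17, -1.12 and -0.96 in controls and -0.82, -0.65 and -0.47 in knockouts. That difference of 0.43 (SE 0.19, limma adjusted p = 0.0692) was not called, although all knockouts were above all controls.

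Of the 45 anticodons with enough counts in both forms, 75.6% were called, 64.4% with a higher and 11.1% with a lower ratio in knockouts. Ordered from the largest rise, Gln-TTG was at rank 13, Gln-CTG at 21 and Asn-GTT at 34. The glutamine anticodons were thus in the upper and middle part of an order in which most anticodons were called higher, and asparagine was in the lower part. Whether the ratio changed more for Gln-TTG than for Gln-CTG was not tested.

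**Figure D4:**
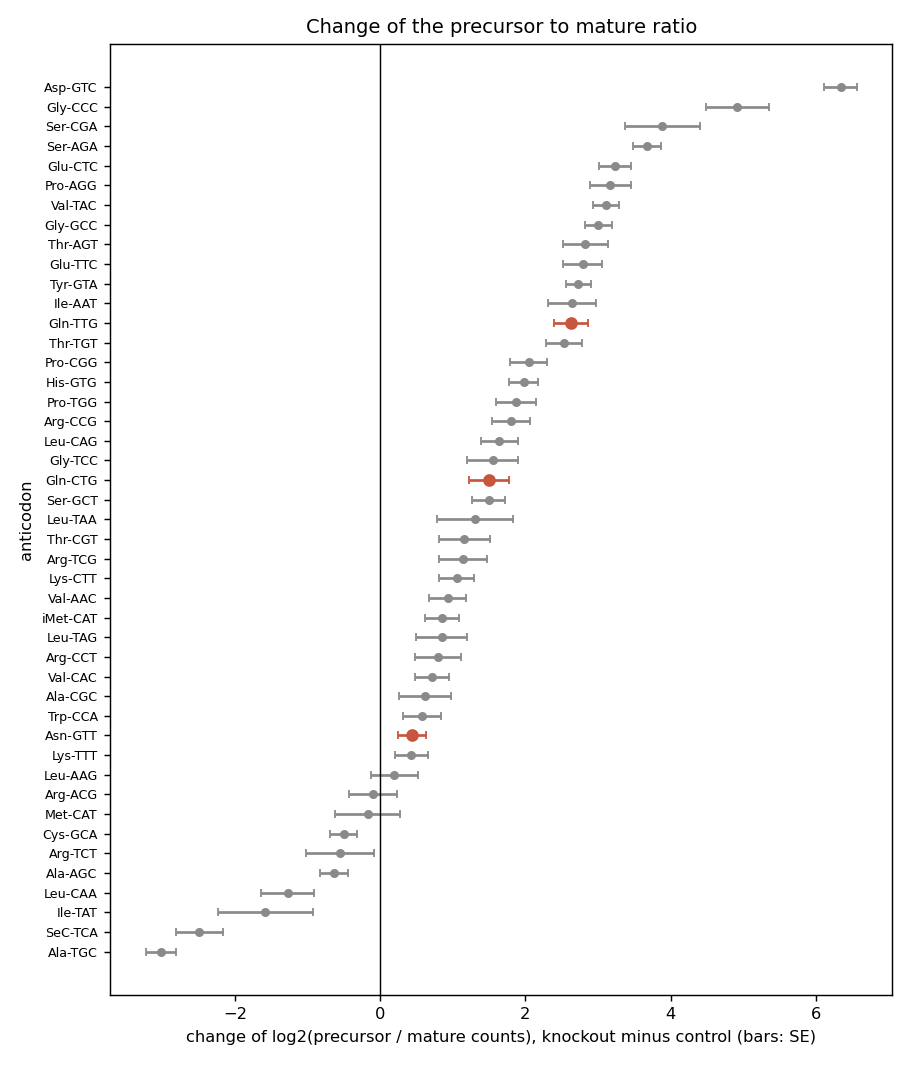
Change of the log2 ratio of precursor to mature counts, knockout minus control, for 45 anticodons, with the SE as bars and glutamine and asparagine in red. Gln-TTG (2.63) and Gln-CTG (1.50) lie to the right of 0, and Asn-GTT (0.43) lies near the anticodons that were not called.

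Per isotype, the share of reads counted to precursors was 9.06%, 6.00% and 7.80% for glutamine in controls and 19.8%, 19.4% and 16.6% in knockouts. Its mean went from 7.62 ± 1.53% to 18.6 ± 1.73% (exact two-sided permutation p = 0.1). For asparagine the share was 30.7%, 31.5% and 34.0% in controls and 36.1%, 38.9% and 41.8% in knockouts, with means of 32.1 ± 1.71% and 38.9 ± 2.86% (exact two-sided permutation p = 0.1). Neither isotype's groups overlapped, and 0.1 is the smallest p this design allows. Over only the features that passed the filter, the difference shrank to 5.01 percentage points for glutamine (exact permutation p = 0.1) and to 2.72, from 6.88, for asparagine (exact permutation p = 0.4). In controls asparagine had a larger share of precursor reads than glutamine in every library.

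Summed mature glutamine reads did not show the divergence of their anticodons. They went from 32.8 ± 0.774 to 37.7 ± 3.13 CPM (SD, n = 3 each), a log2 fold change of 0.20 (SE 0.18, edgeR adjusted p = 0.373). With snoRNA and scaRNA genes it was -0.65 and called lower (edgeR adjusted p = 0.00970), and with snRNA and nuclear rRNA genes 0.76 and called higher (edgeR adjusted p = 0.0296). Mature asparagine was 0.40 (edgeR adjusted p = 0.175), and the log2 ratio of glutamine to asparagine mature reads differed by -0.20 between the groups (exact two-sided permutation p = 0.7). Over the 21 mature isotypes tested, 1 was called higher and 13 lower by edgeR, with a median log2 fold change of -0.73. In that order asparagine was at rank 2 and glutamine at rank 4 from the highest, and neither was called with TMM scaling.

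Among anticodons the mature sums of Gln-CTG, Asn-GTT and Gln-TTG were at ranks 4, 8 and 38 from the highest of 47, of which 4 were called higher and 27 lower, with a median log2 fold change of -0.68. Precursor sums of Gln-CTG, Gln-TTG and Asn-GTT were at ranks 10, 15 and 17 of 45, with 18 called higher, 6 lower and a median of 0.54. Precursor glutamine as an isotype rose from 2.70 ± 0.527 to 8.60 ± 0.810 CPM (1.67, SE 0.25, edgeR adjusted p = 0.000191) and was at rank 4 of 22 precursor isotypes. Precursor asparagine (0.82, edgeR adjusted p = 0.0101) was at rank 7. Of those 22 isotypes 8 were called higher and 2 lower, with a median of 0.40. Over all 949 rows of that table, 50.7% were called, 23.0% higher and 27.7% lower.

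The choice of library scaling moved all these values together. Relative to TMM, the median log2 fold change of all 1144 features shifted by -0.84 when scaled by snoRNA and scaRNA genes, -0.34 with total counts, -0.18 with miRNA genes, -0.02 with DESeq2 size factors and 0.54 with snRNA and nuclear rRNA genes. Higher calls were 46.2% of all calls with TMM, 13.3% with snoRNA and scaRNA genes and 64.4% with snRNA and nuclear rRNA genes. Under all 6 scalings mature Gln-TTG was lower and precursor Gln-CTG higher, each with a call. Mature Gln-CTG and mature and precursor Asn-GTT had negative values with snoRNA and scaRNA genes, at -0.35, -0.44 and -0.02.

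**Figure D5:**
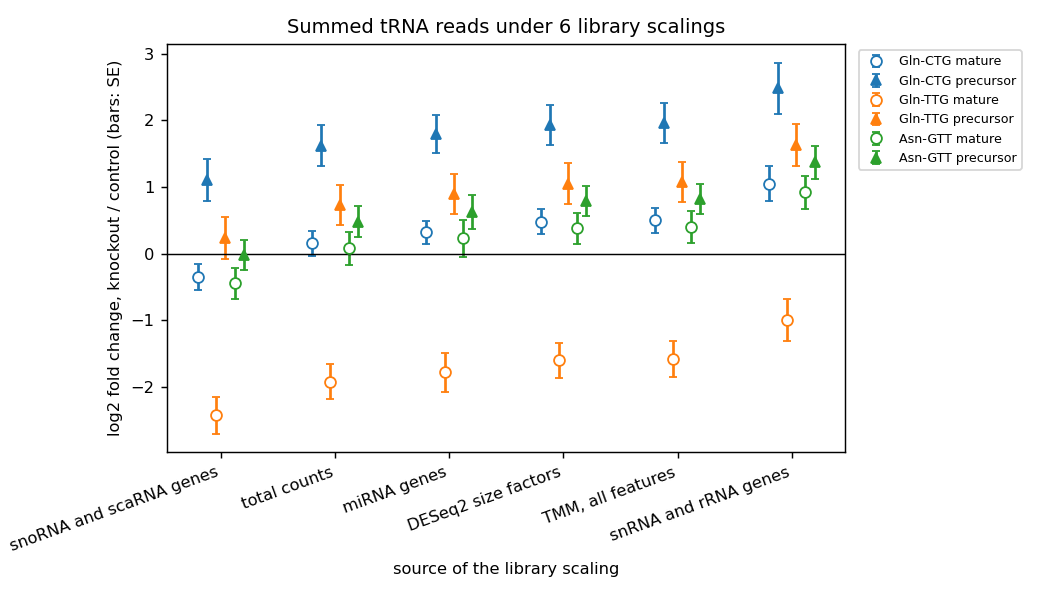
Log2 fold changes of the 6 anticodon sums, knockout against control, with the SE as bars, under 6 sources of the library scaling. Mature Gln-TTG stays below 0 (from -2.42 to -0.99) and precursor Gln-CTG above 0 (from 1.11 to 2.48), while the other sums keep their order relative to each other and shift with the scaling.

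The mitochondrial tRNAs for the same amino acids, transcribed from mitochondrial DNA, both fell. The glutamine tRNA mt-Tq went from 829 ± 300 to 21.7 ± 4.27 CPM (SD, n = 3 each; log2 fold change -5.25, SE 0.32, edgeR adjusted p = 4.51e-07). The asparagine tRNA mt-Tn went from 4987 ± 157 to 41.9 ± 18.9 CPM (-6.89, SE 0.37, edgeR adjusted p = 2.55e-07). Both were called under all alternatives tried.

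Other RNA polymerase III products and the RNAs of tRNA processing were taken as a list of 190 names, of which 135 had a count and 72 were tested by edgeR. Of these, 2 were called higher and 19 lower, with a median log2 fold change of -0.53, beside 23.2% higher, 27.0% lower and a median of -0.01 over all features tested. Genes of 5S rRNA, near-identical copies, made up 63 of the 72, with 2 higher, 13 lower and a median of -0.53, and of the other 9 tested members 0 were higher and 6 lower, with a median of -1.18. The 2 called higher were the 5S genes n-R5s209 (1.49, edgeR adjusted p = 0.000449) and n-R5s162 (1.10, edgeR adjusted p = 0.0411). Rpph1, the RNA of nuclear RNase P, which cuts the 5′ leader, was at 51.0 ± 8.81 CPM in controls and 56.0 ± 1.76 CPM in knockouts (0.14, SE 0.19, edgeR adjusted p = 0.577). Rmrp, the related RNA of RNase MRP, was at 393 ± 63.8 and 529 ± 62.1 CPM (0.43, SE 0.18, edgeR adjusted p = 0.0691). The 7SK RNA Rn7sk fell by 4.80 on the log2 scale (SE 0.33, edgeR adjusted p = 8.28e-07), and the Y RNA Rny1 fell by 2.14 (SE 0.19, edgeR adjusted p = 4.11e-06).

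Marker miRNAs of some cell types moved between the groups as well. The striated muscle miRNAs (7 of 7 tested, 1 called higher and 2 lower by edgeR) summed to between 117767 and 147949 CPM in controls and between 72626 and 93228 CPM in knockouts. The fibroblast miRNAs (2 of 4 with counts, both called higher; Mir199a-2 and Mir214 at 0) summed to between 1156 and 1627 CPM in controls and between 2217 and 2344 CPM in knockouts. Leukocyte miRNAs (2 of 5 with counts, 1 called lower; Mir223 and Mir155 at 0) summed to between 125 and 156 CPM in controls and 159 and 193 CPM in knockouts. These 3 sums did not overlap between the groups. Sums that overlapped included those of red cell miRNAs (2 of 4 with counts, 1 called higher), between 504 and 1188 CPM in controls and 877 and 1424 CPM in knockouts, and the endothelial Mir126a, between 19520 and 23749 CPM in controls and 17610 and 20960 CPM in knockouts. Smooth muscle (2 of 2 tested), liver (Mir122) and neuron miRNAs (1 of 4 tested) also had overlapping sums, with 0 called. The part of the marker shifts in the changes of glutamine and asparagine tRNAs was not tested.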

How the data were processed

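Small RNA was sequenced from hearts of 3 control and 3 knockout mice, 1 table per mouse. Each mouse had technical replicates, per the series' text, and the sources used here do not give how they were merged. Titles gave the groups and the replicate numbers.

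The authors deposited raw counts per feature, which are the input of every test here. The authors' deposited table also gives log2 fold changes and adjusted p-values, used only where named. The submitters' processing notes name build mm10 with Bowtie2 2.2.9, DESeq2 1.16.1, featureCounts 1.5.1 and cutadapt 1.14. The strand setting, the annotation and the treatment of multimapping reads were not given in the sources used here. There were 0 columns of other samples.

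Features were kept by filterByExpr (minimum count 10, minimum total 15), which left 1144. The groups were compared with edgeR 4.0.16 (quasi-likelihood test, TMM factors, R 4.3.3, no covariate), with Benjamini-Hochberg adjustment over all features tested, a threshold of 0.05 and a biological coefficient of variation of 0.217. Tables with tRNA features summed per anticodon, isotype or family used the same factors. The ratio of forms was tested with limma 3.58.1 on log2 ratios with 0.5 added to both counts, over 45 anticodons with a mean of at least 5 counts per form. Single values per library went into exact permutation tests, two-sided. Count ratios compare summed counts, each divided by the summed TMM-scaled library sizes of its group. Intervals of count ratios are exact conditional binomial ones at 95% and, as no molecular identifiers are described, cover counting error only, as does the floor of 3 counts. DESeq2 1.42.0 was an alternative. Data were also simulated with a common dispersion for all features. Over 1152 simulated features, edgeR recovered 69.5% of changes of 1 and 98.9% of changes of 2 on the log2 scale, with 3.68% false calls. Recovery was not measured for low-count features such as the precursors. No library was a copy of another (chi-square over its degrees of freedom at least 79.1 for every pair).

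The members and lists were chosen with earlier results of these data known. The naming rule took every anticodon sum, every mature feature with a mean of at least 10 CPM, every precursor that passed the filter, the most abundant feature below those minimums per form and isotype, mt-Tq and mt-Tn. Other members were named after their values were seen. Alternatives were other scalings, no filter, DESeq2, leaving out each mouse and a block for the replicate number.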

Additional observations from a re-analysis of the deposited data

How the results depend on the processing

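Under every alternative run on them, the sums of mature Gln-TTG, precursor Gln-CTG and precursor glutamine kept direction and call. So did the ratios of forms of Gln-CTG and Gln-TTG, mt-Tq and mt-Tn. Mature Gln-TTG-3 and precursor Asn-GTT-2-1 did as well. Each of these reached the minimum of the filter only in the group where it was high, so their calls are a description. The ratio of forms of Asn-GTT was positive and not called throughout, and the ratio of mature Gln-CTG to Gln-TTG, which this design cannot call, kept its direction. Calls that changed are below, and the cause was not tested.

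With scaling by snoRNA and scaRNA genes, the sums were -0.44 (mature Asn-GTT and mature asparagine), -0.35 (mature Gln-CTG), -0.65 (mature glutamine, called lower, edgeR adjusted p = 0.00970), -0.02 (precursor Asn-GTT and asparagine) and 0.23 (precursor Gln-TTG). Single mature features were -0.73 (Asn-GTT-1), -0.72 (Asn-GTT-3), -0.33 (Gln-CTG-1), -0.42 (Gln-CTG-2), -0.30 (Gln-CTG-5) and -0.66 (Gln-CTG-6), and precursors -0.73 (Asn-GTT-3-2), -0.63 (Asn-GTT-3-7) and -0.37 (Asn-GTT-3-8). With total counts, the sums were 0.16 (mature Gln-CTG), 0.48 (precursor Asn-GTT and asparagine), 0.73 (precursor Gln-TTG) and -0.15 (mature glutamine), and features -0.21 (Asn-GTT-1), -0.22 (Asn-GTT-3), -0.15 (Gln-CTG-6), -0.23 (precursor Asn-GTT-3-2) and -0.13 (precursor Asn-GTT-3-7). With miRNA genes, the values were 0.32 (mature Gln-CTG), 0.63 (precursor Asn-GTT and asparagine), -0.06 (Asn-GTT-1), -0.08 (Asn-GTT-3) and -0.11 (precursor Asn-GTT-3-2). With snRNA and nuclear rRNA genes, mature Asn-GTT and asparagine (0.92) and mature glutamine (0.76) were called, and precursors Asn-GTT-3-1 and Asn-GTT-3-6 were 0.16 and 0.23. With no filter, mature Asn-GTT and asparagine (0.76) were called, precursors Asn-GTT-3-1 and Asn-GTT-3-6 were 0.00 and 0.06, and 1141 features were called, 37.9% of them higher, with a median shift of 0.36.

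Of the 49 features, 9 were called, against 3 (total counts), 5 (miRNA genes), 7 (snoRNA and scaRNA genes), 11 (snRNA and rRNA genes), 19 (no filter) and 5 (DESeq2's Wald test). Mature higher calls were 2, against 0 with total counts, miRNA or snoRNA and scaRNA genes, 5 with snRNA and rRNA genes or no filter and 1 by DESeq2. Mature lower calls were 2, against 4 (snoRNA and scaRNA genes) and 1 (snRNA and rRNA genes). Precursor higher calls were 5, against 1 (total counts, snoRNA and scaRNA genes), 3 (miRNA genes), 12 (no filter) and 2 (DESeq2), and lower calls 0, against 2 (snoRNA and scaRNA genes).

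Leaving out 1 mouse gave 486 to 908 features and 8 to 16 members called, with 1 to 4 mature and 4 to 10 precursor members higher. The median log2 fold change of all features shifted by 0.21 to 0.24 without a knockout mouse and by -0.02 to 0.02 without a control mouse. Sums ranged from 0.31 to 0.74 (mature Asn-GTT and asparagine), 0.45 to 0.78 (mature Gln-CTG), 0.77 to 1.11 (precursor Asn-GTT and asparagine), 1.03 to 1.34 (precursor Gln-TTG) and 0.17 to 0.49 (mature glutamine). Single features ranged from -0.03 to 0.66 (Gln-CTG-6), -0.63 to 0.14 (precursor Asn-GTT-3-1), -0.14 to 0.71 (Asn-GTT-3-2) and -0.41 to 0.04 (Asn-GTT-3-6). With only features that passed the filter, the precursor share differed by 5.01 percentage points for glutamine (exact permutation p = 0.1) and 2.72 for asparagine (exact permutation p = 0.4). The filter kept 3 of 19 glutamine and 7 of 13 asparagine precursors.

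Same-numbered mice of the 2 groups did not deviate together (r = -0.13, -0.02 and -0.19, against -0.05 to 0.17 for mice of different numbers). These few correlations show no pairing by number but cannot exclude one. With the replicate block, edgeR called 242 features higher and 294 lower, mature Gln-CTG was 0.50 with an edgeR adjusted p of 0.141, and precursor Gln-TTG-3-1 was 1.10 with an edgeR adjusted p of 0.0759. Single precursor copies held at most 45 counts per library, which limits the precision of their fold changes.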
